A study of Mus musculus with 2 samples.

Results

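The genes described here are 10 that encode secreted antimicrobial proteins: the lysozymes Lyz1 and Lyz2, the iron-binding Lcn2 and Ltf, the metal-binding S100a8 and S100a9, the acute-phase protein Saa3, and the granule or mucosal proteins Camp, Ngp and Slpi. They were chosen by gene name in the GENCODE M21 annotation, with earlier results of these data known. They are 10 of 55536 annotated genes, of which 22028 are protein-coding. Their 32 transcript models are part of 141767 annotated models. The RNA came from macrophages grown from bone marrow of C57BL/6J mice and stimulated for 40 min with Lipid A at 100 ng/ml. Lipid A is the part of bacterial lipopolysaccharide that the receptor TLR4 recognises. The nucleoplasmic RNA fraction, which the labels also call nuclear, was depleted of ribosomal RNA and sequenced. The 1 group held 2 libraries, labelled biological replicates 1 and 2, which carry the same donor identifier and were made from 1 µg and 500 ng of RNA, so that the effects of input and of replicate cannot be told apart. The age and sex of the mice were not recorded in the labels. No unstimulated library was used here, so every value is a level and not a response.

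Secreted antimicrobial proteins limit microbes in several ways. Lysozymes cut the peptidoglycan of bacterial cell walls, lactoferrin (Ltf) and lipocalin-2 (Lcn2) withhold iron, and the S100a8 and S100a9 proteins form calprotectin, which withholds zinc and manganese. Neutrophils make many of them early, during granule formation in the bone marrow, whereas macrophages make the M-type lysozyme Lyz2 steadily and can make Saa3 and Lcn2 after stimulation through TLR4.

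Lyz2 was the member with abundant nucleoplasmic RNA, Saa3 was present at a moderate level, and the remaining 8 had at most 36 expected counts in either library. Detection required at least 1 TPM (the authors' level corrected for transcript length) in both libraries. By this rule 2 of the 10 members were detected, Lyz2 and Saa3, beside 40.0% of all protein-coding genes. Lyz2 alone held 98.8% of the summed TPM of the 10 genes in both libraries and 99.4% of their summed expected counts (the authors' estimates of fragments per gene). The same 2 were detected in the FASTQ-derived tables described below (41.4% of protein-coding genes). The count of members rose to 8 at a TPM of at least 0.1 (53.7%), to 4 by FPKM with Lcn2 and S100a9 added (42.8%), and to 4 by posterior mean TPM with S100a9 and Ltf added (44.8%). On replicate 1 alone, a looser rule, it was 5, with S100a8, S100a9 and Ltf added. The share of protein-coding genes by that rule was not computed. With TPM rescaled without features of effective length under 200 bases, Lyz1, Lcn2, S100a9, Ngp and Ltf also reached 1 TPM in both libraries. The share of protein-coding genes on that scale was not computed either. In bulk RNA, fewer cells of a type and less RNA per cell cannot be told apart.

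**Figure D1:**
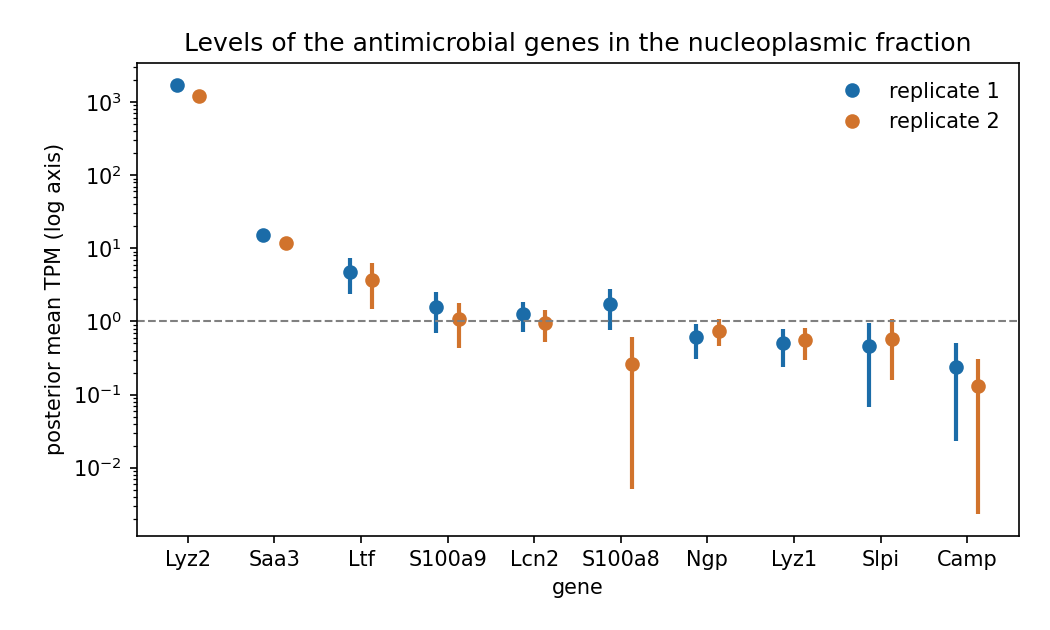
The authors' posterior mean TPM (vertical log axis) of each member in replicate 1 (blue) and replicate 2 (orange), with vertical lines for the deposited credibility interval within each library and a dashed line at the detection threshold of 1 TPM. Lyz2 lies near 1727 and 1222, Saa3 near 15.4 and 12.0, and the remaining 8 genes lie below 5.

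The libraries held 19630046 and 18434601 expected counts in the alignment-based tables, and 26929533 and 33536257 estimated counts in a further set of transcript tables that the authors derived directly from the reads (FASTQ-derived). Features with an effective length under 200 bases took 62.6% of all TPM in replicate 1 and 74.0% in replicate 2, which lowers the TPM of every longer gene by an amount that differs between the libraries. All 10 macrophage markers were detected, with summed levels of 2615 and 1658 TPM, led by the pore-forming protein gene Mpeg1, the lipopolysaccharide co-receptor gene Cd14 and the growth factor receptor gene Csf1r. Of 12 neutrophil markers 2 were detected, the receptor gene Csf3r and the collagenase gene Mmp8. The neutrophil list summed to 67.4 and 67.1 TPM, of which Csf3r alone gave 63.7 and 65.3. Elane, Ly6g, Retnlg and Stfa2l1 had 0 counts in both libraries. The other 6, Mpo, Prtn3, Ctsg, Cxcr2, Cd177 and Cebpe, had at most 9 counts in either library. Of the other lists, 1 of 3 monocyte (Ccr2), 0 of 4 dendritic cell and 0 of 6 epithelial markers were detected, and 5 of the epithelial markers had 0 counts.

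Lyz1 and Lyz2 are neighbouring copies on chromosome 10 (mm10, minus strand), Lyz2 at chr10:117277331-117282321 (ENSMUSG00000069516.8) and Lyz1 at chr10:117287797-117292868 (ENSMUSG00000069515.6), 5476 bases apart. Lyz1 is known as the lysozyme of intestinal Paneth cells and Lyz2 as that of macrophages and granulocytes. Each has 1 annotated model of 4 exons. Their coding sequences bear on how well short reads can separate them and are shown for that reason, 5′ to 3′ from the GENCODE M21 models, with capitals where they differ. The first 300 of 447 coding bases are printed, which hold 20 of the 22 differences (whole coding spans chr10:117288583-117292838 for Lyz1 and chr10:117278121-117282242 for Lyz2).
Lyz1 coding sequence: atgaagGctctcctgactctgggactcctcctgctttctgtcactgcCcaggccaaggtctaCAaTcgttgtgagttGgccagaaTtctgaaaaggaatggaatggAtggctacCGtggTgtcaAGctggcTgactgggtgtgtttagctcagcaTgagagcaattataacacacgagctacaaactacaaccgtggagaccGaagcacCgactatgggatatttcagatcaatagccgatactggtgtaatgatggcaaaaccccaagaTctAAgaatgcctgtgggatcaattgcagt
Lyz2 coding sequence: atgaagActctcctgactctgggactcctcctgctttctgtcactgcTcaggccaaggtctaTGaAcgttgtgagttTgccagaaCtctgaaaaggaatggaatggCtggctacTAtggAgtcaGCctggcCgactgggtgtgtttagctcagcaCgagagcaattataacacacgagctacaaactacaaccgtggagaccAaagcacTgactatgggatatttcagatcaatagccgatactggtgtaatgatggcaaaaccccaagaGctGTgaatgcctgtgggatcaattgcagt
Of the 447 positions 425 (95.1%) were identical, with a longest identical run of 118 bases. Over the whole transcripts the identity was 92.0%. Of the 31-base words in the transcripts, 65.8% of those of Lyz1 and 67.2% of those of Lyz2 occurred in no other annotated gene, and the 422 shared words were shared only between these 2 genes. The capitals are spread so that 255 of the 417 words of the Lyz1 coding sequence hold at least 1 difference from Lyz2.

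Lyz2 RNA far exceeded Lyz1 RNA in both libraries. Lyz2 had 1820 TPM in replicate 1 and 1264 TPM in replicate 2 (mean 1542 ± 393, SD, n = 2), from 43456 and 39333 expected counts. Lyz1 had 0.48 and 0.54 TPM (mean 0.51 ± 0.042), from 11 and 16 expected counts. Per length, Lyz2 exceeded Lyz1 by 3792-fold in replicate 1 and 2341-fold in replicate 2. The Lyz1 share of the summed TPM of the pair was 0.0264% and 0.0427%. In the FASTQ-derived tables Lyz1 had 21.1 and 49.5 estimated counts, and its share was 0.0472% and 0.0947%, with Lyz2 2118-fold and 1055-fold above it. The size of the gap thus differed between the kinds of table while its direction did not. The expected counts of both genes lay within 0.01 of a whole number in each library. Whether the few Lyz1 counts are reads of Lyz2 was not tested.

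The sequences upstream of the pair are shown because the copies with such different levels also have similar sequence before their RefSeq starts. They are given 5′ to 3′ on the minus strand from RefSeq windows (GRCm38.p6, the build of mm10), with capitals where the aligned copies differ or have no partner. The Lyz1 stretch is chr10:117292869-117293118 and ends at the annotated start. The Lyz2 stretch is chr10:117282322-117282522 and ends at the GENCODE start, so the partner of the last part of the Lyz1 stretch is not printed.
Lyz1 upstream: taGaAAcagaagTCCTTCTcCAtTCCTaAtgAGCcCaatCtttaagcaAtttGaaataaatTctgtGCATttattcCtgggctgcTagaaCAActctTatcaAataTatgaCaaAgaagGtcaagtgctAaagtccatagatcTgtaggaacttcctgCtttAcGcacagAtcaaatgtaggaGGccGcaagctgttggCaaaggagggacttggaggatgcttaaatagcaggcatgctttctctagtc
Lyz2 upstream: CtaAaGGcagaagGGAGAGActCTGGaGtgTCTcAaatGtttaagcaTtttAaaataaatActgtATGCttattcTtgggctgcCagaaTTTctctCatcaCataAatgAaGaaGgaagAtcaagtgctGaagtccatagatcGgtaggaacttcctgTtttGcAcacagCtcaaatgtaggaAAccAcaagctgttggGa
Over the 250 bases before the RefSeq starts, 79.4% of aligned columns were identical. The nearest 100 bases were 92.0% identical and held a run of 50 identical bases, whereas bases 101 to 250 were 71.1% identical. The similarity was therefore highest next to the RefSeq starts. For Lyz2, only 201 of the 250 bases lie before the GENCODE start. The rest, next to the RefSeq start, lie in its annotated first exon and hold nearly all of the run of 50. Identity without that exon part was not computed.

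Lyz2 ranked 15 among 22028 protein-coding genes by mean TPM (16 in replicate 1 and 15 in replicate 2). Of the 14 genes above it, 9 were mitochondrially encoded. It contributed 0.304% and 0.295% of all protein-coding counts. Its TPM differed between the libraries, but its FPKM (a level per kilobase relative to the fragments assigned in the library) was 1994 and 1965. After features of effective length under 200 were left out and TPM rescaled, it was 4868 and 4863 TPM. The FASTQ-derived tables gave it 729 and 591 TPM (mean 660 against 1542). On counts scaled with TMM (trimmed mean of M values), the log2 ratio of replicate 2 to replicate 1 was -0.05, with a 95% exact binomial counting interval from -0.07 to -0.03. The middle range of protein-coding genes averaging at least 10000 counts ran from -0.18 to 0.16 (25th to 75th percentile), and the whole Lyz2 interval lay inside it, although the interval did not include 0.

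**Figure D2:**
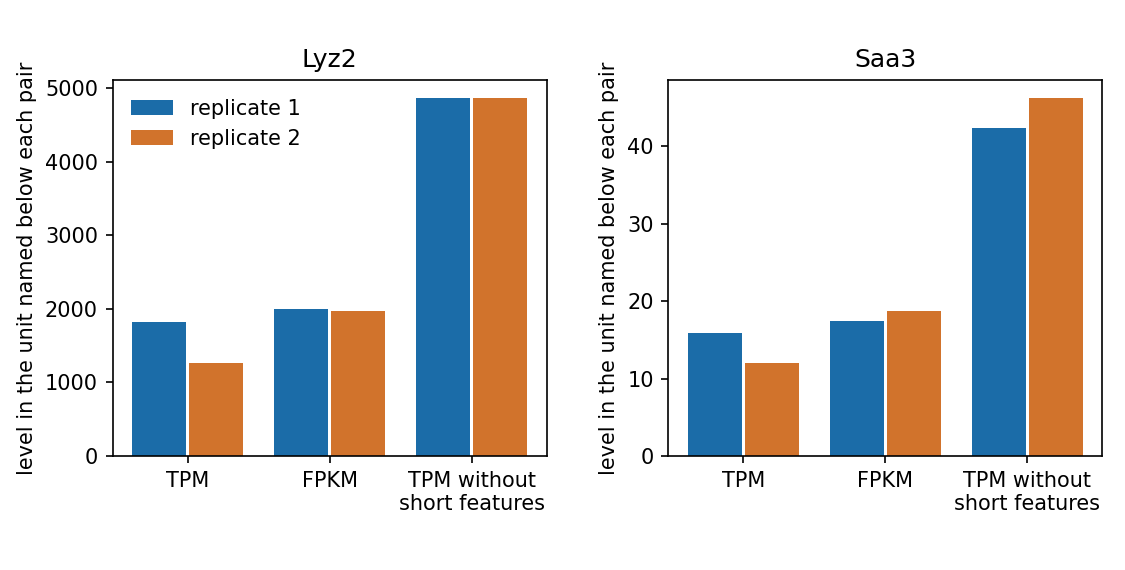
Level of Lyz2 (left) and Saa3 (right) in replicate 1 (blue) and replicate 2 (orange), as deposited TPM, deposited FPKM and TPM rescaled without features of effective length under 200; the vertical axes start at 0 and are in the unit named below each pair. The replicates differ in TPM (1820 against 1264 for Lyz2) and lie close together in the other 2 units (1994 against 1965 FPKM).

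Saa3, an acute-phase apolipoprotein gene known to be switched on in activated macrophages, lies at chr7:46711998-46715700 (mm10, minus strand, ENSMUSG00000040026.8). It had 15.9 TPM in replicate 1 and 12.0 TPM in replicate 2 (mean 13.9 ± 2.71, n = 2), from 172 and 152 expected counts. The credibility intervals were 12.8 to 18.0 and 9.88 to 14.2 TPM, and they overlapped. Its FPKM was 17.4 and 18.7, and the TMM-scaled log2 ratio was -0.08 with a counting interval from -0.40 to 0.24. It ranked 2859 among protein-coding genes, and 87.0% of them were lower. The Saa genes beside it were not detected. Saa1 and Saa4 had 0 counts in both libraries, and Saa2 had 0 and 2 counts (0 and 0.03 TPM).

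The C/EBP factors are known regulators of acute-phase and granule genes. The Saa3 upstream sequence is shown because it held more matches to their motif than that of Lyz2, the other detected member. It is chr7:46715701-46715926, read 5′ to 3′ on the minus strand from the RefSeq window (GRCm38.p6) up to the GENCODE start, with the matches to TTNNGNAA on either strand in capitals.
Saa3 upstream: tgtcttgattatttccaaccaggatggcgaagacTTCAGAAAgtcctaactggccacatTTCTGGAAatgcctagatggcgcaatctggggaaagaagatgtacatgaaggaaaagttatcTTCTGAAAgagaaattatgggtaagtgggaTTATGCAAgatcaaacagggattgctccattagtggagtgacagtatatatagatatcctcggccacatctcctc
It holds 4 matches, the farthest starting 216 bases and the nearest 99 bases before the RefSeq start. In the 250 bases before the RefSeq starts of all 10 members, 9 held at least 1 match (all but Camp), and 36.8% of 32851 such windows did. Ngp and Slpi, which were not detected, also held several matches. The share of windows with 4 matches was not computed. The RefSeq and GENCODE starts coincide for Lyz1 and S100a9 only. For the other members, part or all of the window lies inside the annotated gene. For the 6-letter PU.1 motif GAGGAA the members were Lcn2, S100a8 and Ltf, 3 of 10, beside 23.3% of windows. TATAAA was found in S100a8 alone of the members and in 12.4% of windows. TGANTCA (AP-1) and the kappaB motif were in 0 members and in 6.75% and 7.25% of windows. All motifs were searched on both strands. These are matches of letters and not measured binding sites.

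The counts of Saa3 were divided differently by the 2 kinds of transcript table. The spliced model Saa3-201 has 4 exons and 555 bases. The model Saa3-202 has 2 exons and 2200 bases, and its second exon covers 2051 of the 2282 bases (89.9%) of the intron at chr7:46712728-46715009, intron 2 of Saa3-201. In the alignment-based tables Saa3-201 held 108 and 104 counts, or 62.7% and 68.4% of the gene, and Saa3-202 held 64.2 and 48.0. In the FASTQ-derived tables Saa3-201 held 141 and 196 estimated counts, or 29.7% and 31.8% of the gene, and Saa3-202 held 334 and 421. The model that covers most of the intron thus had the smaller share of counts in the first kind of table and the larger share in the second, in both libraries. Per length, Saa3-201 was the higher model in both kinds, with 14.4 and 11.2 TPM in the alignment-based tables against 1.5 and 0.85 TPM for Saa3-202, and with 6.44 and 7.14 against 2.93 and 2.49 TPM in the FASTQ-derived tables. The third model, Saa3-203, was at 0 in all 4 tables.

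**Figure D3:**
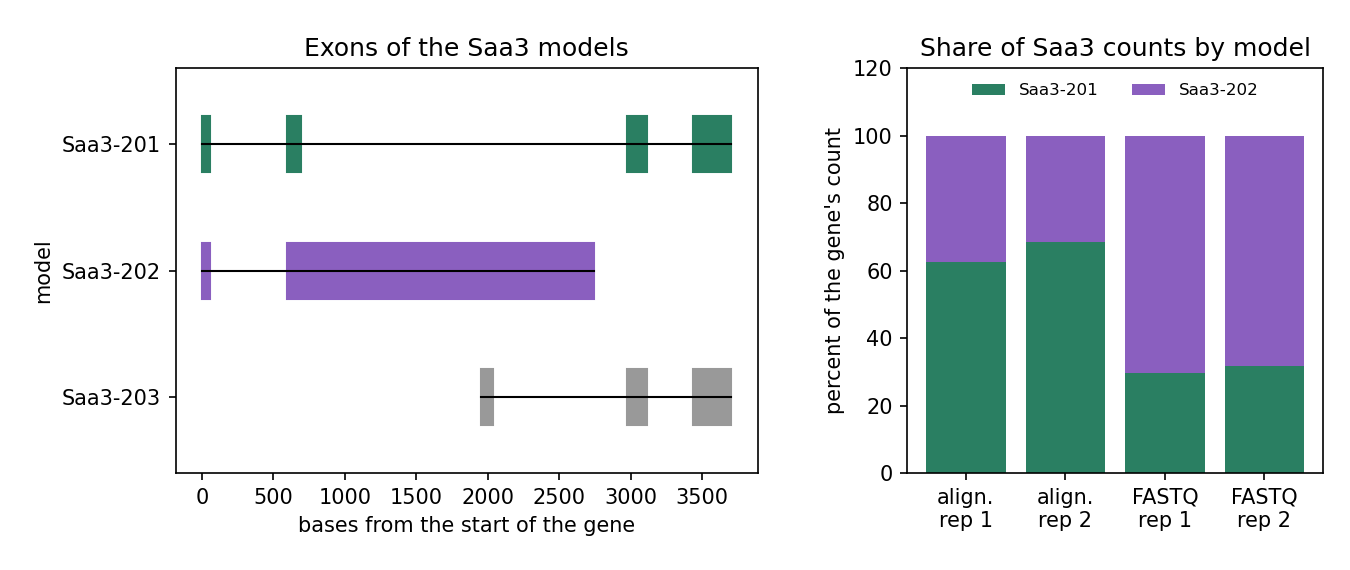
Left, the exons (boxes) and introns (lines) of the 3 Saa3 models, with the horizontal axis in bases from the start of the gene. Right, the percent of the Saa3 counts given to Saa3-201 (green) and Saa3-202 (purple) in each alignment-based (align.) and FASTQ-derived table; the green share is 62.7% and 68.4% in the former and 29.7% and 31.8% in the latter.

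The FASTQ-derived total for Saa3 was 2.76 times its expected count in replicate 1 and 4.06 times in replicate 2. The median over protein-coding genes of at least 100 counts was 1.30 and 1.69, and 97.7% and 98.2% of those genes were below Saa3. Saa3-202 shared 8.06% of its 31-base words with other annotated genes, 3039 of them in all. Saa3-201 shared 5.71% of its words, and only with Saa1 and Saa2. How far reads of other genes entered the Saa3-202 counts was not tested. For Lyz2, the same ratio was 1.08 and 1.4, near the low end in both libraries. Only 1.75% and 2.71% of those protein-coding genes were below Lyz2.

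The iron-binding members were barely represented. Lcn2 (chr2:32384633-32388252, ENSMUSG00000026822.14), whose product binds bacterial iron carriers, had 0.92 and 0.68 TPM from 13 and 12 expected counts (mean 0.80 ± 0.17). Ltf (chr9:111019271-111042767, ENSMUSG00000032496.7), the lactoferrin gene, had 1.74 and 0.54 TPM from 36 and 29 expected counts (mean 1.14 ± 0.85). The gap in Ltf TPM was wider than the gap in its counts. The full-length model Ltf-201, with 17 exons and 2743 bases, had 31.3 and 27.7 counts and 0.57 and 0.39 TPM. In replicate 1 a few counts (1 to 2.65 each) went to the short models Ltf-206, Ltf-207 and Ltf-211, which added 0.32, 0.12 and 0.73 TPM, whereas in replicate 2 only Ltf-208 received any, with 1.27 counts and 0.16 TPM. The posterior mean TPM of Ltf was higher, at 4.79 and 3.65, over its 12 models. The FASTQ-derived tables gave Ltf 41 and 42 estimated counts and 0.59 and 0.56 TPM.

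The Lcn2 counts fell on the coding model Lcn2-201 and on models that keep intron sequence. Lcn2-201 held 8.17 and 6.30 expected counts. The retained-intron model Lcn2-202 held 4.83 counts in replicate 1 and 0 in replicate 2, while Lcn2-203 and Lcn2-205 held 0 in replicate 1 and 3.38 and 2.32 in replicate 2. No single retained-intron model of Lcn2 received alignment-based counts in both libraries.

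The calprotectin genes lie 22597 bases apart on chromosome 3, on opposite strands. S100a8 (chr3:90668978-90670035, ENSMUSG00000056054.9) had 9 expected counts in replicate 1, or 1.48 TPM, and 0 in replicate 2, where 3 counts, the limit taken for a count of 0, would correspond to 0.399 TPM. S100a9 (chr3:90692632-90695721, ENSMUSG00000056071.12) had 9 and 7 expected counts, or 1.34 and 0.87 TPM (mean 1.11 ± 0.33). The FASTQ-derived tables gave S100a8 14 and 10 estimated counts and S100a9 14 and 11, so the 0 of S100a8 in replicate 2 was found in 1 kind of table only. In replicate 2, 8.29 of the 10 FASTQ-derived S100a8 counts were given to the retained-intron model S100a8-202. For S100a9 the expected counts were all on model S100a9-202 in replicate 1 and all on S100a9-201 in replicate 2, models of 519 and 512 bases with the same number of exons.

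Several other S100a genes had higher levels than the calprotectin pair. Of 12 others listed, 6 were detected: S100a10 at 47.4 and 48.8 TPM, S100a1 at 10.2 and 17.5, S100a4 at 8.25 and 4.81, S100a11 at 5.32 and 5.37, S100a6 at 4.58 and 3.26, and S100a13 at 1.92 and 1.80. S100a10 is known as the partner of annexin A2, whose gene Anxa2 had 23.5 and 16.2 TPM. S100a2, S100a3, S100a5, S100a14 and S100a16 had 0 counts in both libraries, and S100a7a had 0 and 1 counts. The list median was 0.96 and 0.92 TPM.

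The granule and mucosal members were lower still or equally low. Camp (chr9:109847379-109849617, ENSMUSG00000038357.10), the cathelicidin gene, had 2 and 1 expected counts, or 0.17 and 0.07 TPM (mean 0.12 ± 0.071). Ngp (chr9:110419747-110423012, ENSMUSG00000032484.8), which encodes neutrophilic granule protein, had 13 and 21 expected counts, or 0.59 and 0.74 TPM (mean 0.67 ± 0.11). Slpi (chr2:164354070-164389095, ENSMUSG00000017002.14), an inhibitor of neutrophil proteases, had 1 and 3 expected counts, or 0.16 and 0.36 TPM (mean 0.26 ± 0.14). Camp had the lowest mean of the 10 members in the alignment-based tables, whereas by FASTQ-derived TPM the lowest was Slpi, at 0.055 and 0.347. The FASTQ-derived tables gave Camp 10 and 6 estimated counts, Ngp 15 and 35, and Slpi 2 and 10. In replicate 2, 8 of these Slpi counts were on Slpi-203, the model that reaches farthest upstream.

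**Figure D4:**
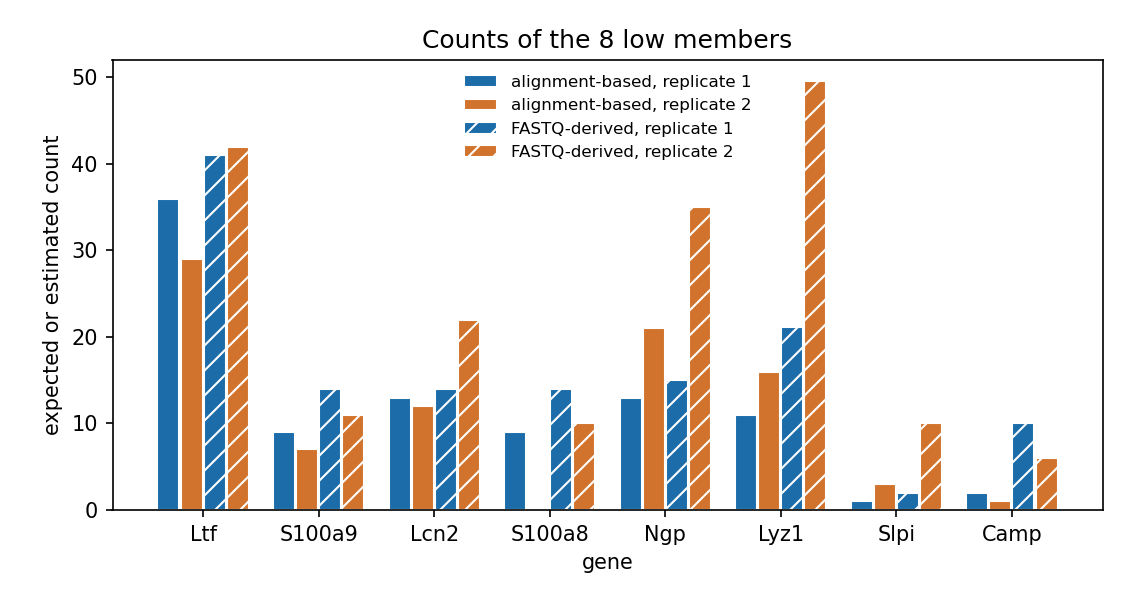
Expected counts (alignment-based tables, plain bars) and estimated counts (FASTQ-derived tables, hatched bars) of the 8 members not detected, in replicate 1 (blue) and replicate 2 (orange). The alignment-based values run from 0 (S100a8, replicate 2) to 36.0 (Ltf, replicate 1), and Lyz1 reaches 49.5 in the FASTQ-derived table of replicate 2.

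In the order of mean TPM, the members ran Lyz2, Saa3, Ltf, S100a9, Lcn2, S100a8, Ngp, Lyz1, Slpi and Camp. Lyz2 and Saa3, and Saa3 and Ltf, were separated by both their TPM ranges and their credibility intervals. Of the 9 neighbouring pairs, the other 7 had overlapping credibility intervals in both libraries, although the TPM ranges of Ngp and Lyz1, and of Lyz1 and Slpi, did not overlap. These intervals are centred on the posterior mean, and for Ltf they lay above its TPM in both libraries (2.35 to 7.49 and 1.49 to 6.33 against 1.74 and 0.54). Of the 28 pairs among the 8 genes below Saa3, 7 had intervals that lay apart in both libraries. They were Ltf against Lcn2, Ngp, Lyz1, Slpi and Camp, and Camp against S100a9 and Lcn2. The 8 genes below Saa3 had ranks from 9071 (Ltf) to 12102 (Camp) of 22028, and 7427 protein-coding genes were at a mean TPM of 0. The median TPM over the 10 members was 1.13 and 0.61, against 0.38 and 0.25 over all protein-coding genes.

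**Figure D5:**
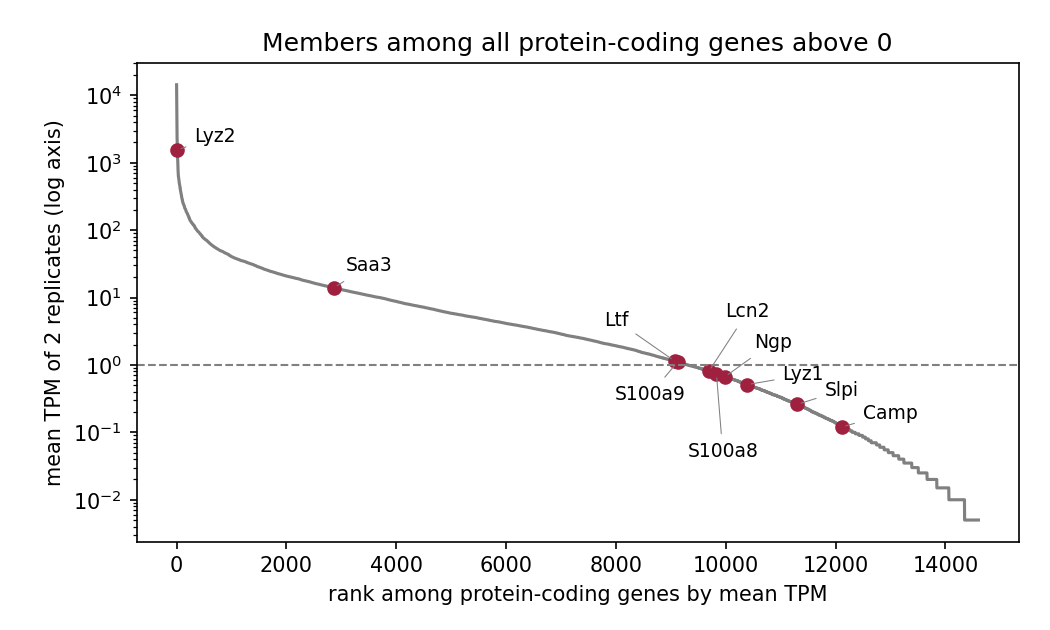
Mean TPM over both replicates (vertical log axis) of every protein-coding gene above 0 (grey line) by its rank (horizontal axis), with the 10 members as points and a dashed line at 1 TPM. Lyz2 stands at rank 15 and Saa3 at rank 2859, and the remaining 8 cluster near or below the dashed line from rank 9071 onward.

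Between the replicates, the members with enough counts to compare differed little or within counting error. Of the 6 that averaged at least 10 expected counts (Lyz2, Saa3, Ltf, Ngp, Lyz1 and Lcn2), 0 were more than 2-fold apart, beside 3.41% of 11348 protein-coding genes. Without this filter 2 of 10 were, S100a8 and Slpi, beside 16.0% of 14607 protein-coding genes with a count. Both rest on at most 9 counts a library, and S100a8 was less than 2-fold apart in the FASTQ-derived tables, with a log2 ratio of -0.79. In those tables Slpi, at 1.78, and Camp, at -1.01, were more than 2-fold apart. The log2 ratio of replicate 2 to replicate 1 was 0.77 for Ngp, with a counting interval from -0.28 to 1.91, and 0.62 for Lyz1, with an interval from -0.56 to 1.89. It was -0.21 for Ltf, from -0.97 to 0.53, and -0.02 for Lcn2, from -1.28 to 1.23. These 4 intervals included 0, and those of Ngp, Lyz1 and Lcn2 also included a 2-fold difference, so the depth could not tell a 2-fold difference from none. With 1 library at each RNA input, no test between the replicates was made.

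Neutrophil granules are named in the order of their formation, and Camp, Ngp and Ltf belong to the secondary ones. Of 7 primary granule genes 0 were detected and 4 (Elane, Bpi, Prss57 and Ms4a3) had 0 counts in both libraries, so the list median was 0. The highest were Prtn3 at 0.21 and 0.13 TPM, Ctsg at 0.23 and 0 and Mpo at 0.13 and 0.09. Of 12 further secondary and tertiary granule genes 5 were detected, a share close to the 40.0% of all protein-coding genes. The highest, Cybb and Cyba, encode the membrane subunits of the phagocyte oxidase, which macrophages also make, and had 477 and 329 TPM and 115 and 85.0 TPM. Mmp8 followed at 2.85 and 1.37, with the chitinase-like gene Chil3 at 2.76 and 1.07 and the adhesion gene Ceacam1 at 1.68 and 1.10. The list median was 0.50 and 0.31 TPM. The part of neutrophil RNA in the counts of Ltf, Ngp, Camp, S100a8 and S100a9 was not tested. Of the 12 neutrophil markers 4 were at 0 and 8 had counts in at least 1 library, with 136 and 86 for Mmp8. Among the Wfdc genes, which share a domain with Slpi, 1 of 10 was detected, Wfdc17 at 33.4 and 35.3 TPM. Wfdc18 had 1.26 and 0.77, Wfdc21 0 and 0.17, and Wfdc5 0.02 and 0, and the remaining 6 (Wfdc1, Wfdc2, Wfdc3, Wfdc12, Wfdc15a and Wfdc15b) had 0 counts. Of 8 other lysozyme-family genes, Lyzl4 was detected at 1 and 1.46 TPM and 7 had 0 counts. Of 10 other lipocalin-family genes 0 were detected, with Orm2 highest at 0.65 and 0.06 TPM.

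Most other listed antimicrobial genes of macrophages were detected in the same RNA. Of 11 listed, 9 were detected, beside 40.0% of all protein-coding genes. The list median was 144 and 106 TPM. Nos2, at 0.08 and 0.18 TPM, and Ctsg, at 0.23 and 0, were not detected. The pore-forming Mpeg1 had 645 and 399 TPM, the lysosomal protease gene Ctss 647 and 319, and Cybb the values given above. Lyz2 lay above all of these in both libraries. Of 12 genes for receptors and partners of the members, 8 were detected, with a median of 14.5 and 8.19 TPM, led by the lactoferrin-binding receptor gene Lrp1 at 311 and 260 TPM, the scavenger receptor gene Cd36 at 64.8 and 38.1 and Bsg, a receptor for S100a9, at 24.9 and 19.9. The lipocalin-2 receptor gene Slc22a17 had 0.10 and 0.18 TPM, and was singled out after its value was seen.

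Factors known to regulate these genes were mostly present. Of 11 listed, 8 were detected, with medians of 35.2 and 13.4 TPM. The nuclear IκB protein gene Nfkbiz, which Lcn2 induction is known to need, led at 580 and 410 TPM, followed by the NF-κB subunit gene Rela at 52.6 and 41.5 and Stat3 at 50.4 and 27.9. The C/EBP genes, singled out after their values were seen because of the motif above, had 6 and 6.13 TPM for Cebpa, 38.2 and 13.4 for Cebpb, 0.78 and 0.63 for Cebpd, and 0 and 0.10 for Cebpe, the factor of secondary granule formation. Whether the level of any factor bears on that of the members was not tested.

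Across all models of the 10 genes, 11 of 32 had 0 counts in both alignment-based tables and 8 had 0 in all 4 tables. The same shares over all annotated models were not computed, so whether these counts are unusual cannot be told. The 32 models comprised 21 protein-coding, 7 retained-intron, 2 nonsense-mediated decay and 2 processed-transcript models. All 31-base words of Lcn2, S100a8, S100a9, Camp, Ngp, Slpi and Ltf were found in no other annotated gene, so among the low members shared words concerned Lyz1 alone.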

How the data were processed

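Ribosome-depleted RNA of the nucleoplasmic fraction was measured in 2 libraries of 1 group (n = 2), so levels were described and no test between groups was made. Per the file headers, the authors' alignment-based gene and transcript tables give expected counts, TPM, FPKM, posterior mean TPM with a credibility interval and the percent of a gene's level in each model. The bounds of that interval are treated as a score deposited by the authors, centred on the posterior mean and able to exclude the TPM itself, as for Lyz2, Ltf and, where it was 0, S100a8. The FASTQ-derived tables deposited beside them give estimated counts and TPM. Build mm10 and annotation GENCODE M21 are given per the labels of the deposited tables. The aligner, quantifiers and strand setting are not given in the labels or headers used here, and without strand a gene and its antisense partner cannot be told apart.

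The members and all gene lists were chosen with earlier results of these data known. By rule, all members were named, and from each list its counts, median and leading 3 genes by mean TPM, plus other S100a, Saa and Wfdc genes. Replicate ratios used expected counts rounded to whole numbers and TMM in edgeR 4.0.16 (R 4.3.3, prior count 0.5, mean count at least 10). On simulated data, 100 genes each with true log2 ratios of -2 and 2 among 14527 gave medians of -2.04 and 2.03. The spread was assumed, and the changed genes all had higher mean counts than Lyz1, Lcn2, Ngp and Ltf. Recovery at the counts of these 4 members was therefore not tested. DESeq2 1.42.0 size factors were an alternative. Sequences were compared with biopython 1.88 (Python 3.11.15) using GENCODE M21 transcripts and RefSeq upstream windows (GRCm38.p6), in which all 10 members were found. A count of 0 was given the limit of 3 counts. Both the intervals and this limit cover counting error alone and treat each read as an independent molecule. PCR reads lacking molecular identifiers are not independent molecules, so both may understate even that error. The libraries share a donor identifier, so their spread may be less than that between animals.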

Additional observations from a re-analysis of the deposited data

How the results depend on the processing

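The number of members detected depended on the unit and threshold. It was 8 at a TPM of at least 0.1 (all but S100a8 and Camp; 53.7% of protein-coding genes), 4 by FPKM (adding Lcn2 and S100a9; 42.8%) and 4 by posterior mean TPM (adding S100a9 and Ltf; 44.8%). It was 2 at a TPM of at least 5 and in the FASTQ-derived tables (41.4%). With replicate 1 left out it was 2, and with replicate 2 left out it was 5 (adding S100a8, S100a9 and Ltf). After rescaling without features of effective length under 200, Lyz1, Lcn2, S100a9, Ngp and Ltf also reached 1 TPM in both libraries. The lowest of their rescaled values was 1.28 TPM (Lyz1, replicate 1). S100a8, Slpi and Camp did not reach 1 TPM in both. Shares of protein-coding genes were not computed for this rescaling, for 1 library alone or for a TPM of at least 5. Lyz2 and Saa3 were detected under each of these settings. Without a filter on counts, 2 of 10 members, S100a8 and Slpi, were more than 2-fold apart between replicates, beside 16.0% of protein-coding genes with a count. The mean Lyz1 share of the pair was 0.0345% by TPM, 0.0710% in the FASTQ-derived tables (the cause was not tested), 0.0330% by expected counts, 0.0374% by posterior mean TPM, and 0.0264% to 0.0427% with 1 replicate left out. FPKM and rescaling without short features raised the level of 10 of 10 members. This was fixed in advance, since each multiplies these genes in a library by a common factor above 1. The FASTQ-derived tables raised the level of 1 member (Camp). Log2 ratios kept their sign for 10 of 10 members under DESeq2 size factors, total counts, TMM over all genes and log2(TPM + 1), and for 8 of 10 in the FASTQ-derived tables. Their size changed under log2(TPM + 1), where that of Lyz2 was -0.53 against -0.05, that of Ltf -0.83 against -0.21 and that of S100a8 -1.31 against -4.20. From FASTQ-derived counts S100a8 was -0.79, Lcn2 was 0.31 against -0.02 and Saa3 0.04 against -0.08. Slpi was 1.78 against 1.30, and Camp was -1.01 against -0.67. The 8 lower members had at most 36 expected counts each, which limits the precision of their levels and ratios. No paired analysis was possible because there is only 1 group.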
